A study of Homo sapiens with 4 samples.

Results

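The genes of the epithelial-mesenchymal transition were examined in SUM149 cells, a human inflammatory breast cancer line, before and during exposure to Ricolinostat (ACY1215), an inhibitor of histone deacetylase 6. The members were the 10 genes CDH1, CDH2, CDH3, VIM, FN1, ZEB1, ZEB2, SNAI1, SNAI2 and TWIST1, and every probe carrying one of these symbols in the annotated table was taken. That gave 17 probes and 26 spots per array, of 58201 probes, 60901 non-control spots and 34755 gene symbols on the array. One two-colour Agilent array was available for untreated cells and 1 each for cells held in 2.5 uM ACY1215 for 3, 6 and 12 h, so that each time point was a single sample of a single cell line, and no vehicle-treated array was analysed here. All 4 groups were the same line, and the labels name no other agent or genetic change. Cy5 carried the RNA of the sample, and Cy3 carried a common reference described in the labels as untreated and drug-exposed SUM149 RNA pooled together.

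Epithelial cells hold to their neighbours through cadherins, whose tails are tied to actin by catenins, and through tight junctions and desmosomes. In the epithelial-mesenchymal transition these contacts are lost, E-cadherin falls, and N-cadherin, vimentin and fibronectin are gained. The ZEB, SNAI and TWIST transcription factors drive the switch, and the ZEB and SNAI proteins repress the E-cadherin gene by binding E-boxes in its promoter. Inflammatory breast cancer is known for keeping E-cadherin while it invades, which sets it apart from the textbook course of this transition.

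The letters that ZEB and SNAI zinc fingers read are shown for the windows at the starts of ZEB1 and ZEB2. Whether the motif bears on any difference between the arrays was not tested. RefSeq promoter windows on GRCh38.p14 were matched by symbol for 5 of the 10 members, CDH2, VIM, FN1, ZEB1 and ZEB2, and not for CDH1, CDH3, SNAI1, SNAI2 and TWIST1. The 250 bases before each start were searched on both strands for CAGGTG, whose reverse complement is CACCTG, and the capitals mark it. The first window, chr10:31318167-31318416 on the plus strand, lies upstream of the annotated start of ZEB1, and the second, chr2:144520120-144520369 on the minus strand, upstream of that of ZEB2.
ZEB1: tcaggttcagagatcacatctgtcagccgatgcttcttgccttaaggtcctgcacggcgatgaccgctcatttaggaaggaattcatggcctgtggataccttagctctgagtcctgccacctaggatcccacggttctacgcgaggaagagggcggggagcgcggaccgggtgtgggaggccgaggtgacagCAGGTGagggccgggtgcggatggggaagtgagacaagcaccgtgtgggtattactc
ZEB2: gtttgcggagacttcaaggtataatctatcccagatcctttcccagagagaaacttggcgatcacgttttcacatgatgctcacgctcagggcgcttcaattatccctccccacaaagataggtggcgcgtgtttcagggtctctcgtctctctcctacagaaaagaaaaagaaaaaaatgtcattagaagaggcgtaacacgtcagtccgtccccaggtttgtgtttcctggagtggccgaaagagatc
The ZEB1 window held 1 match and the ZEB2 window 0. Only the whole motif was counted, and a part of it, aggtg, stands unmarked in both windows. Among all 7 ZEB1 windows 2 held the motif, with 3 matches in all, and the windows of CDH2, VIM and FN1 held 0. Of 35116 windows of this length in the table, 6143 (17.5%) held the motif, so a match is common and describes letters only.

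Levels are given first as the raw Cy5 signal, the median brightness of the pixels of a spot, which is not normalized between arrays, over a local background of 24 units (median over spots). The log2 ratio of normalized Cy5 over Cy3 follows, and the change is this ratio minus that of the untreated array. A probe was compared when Cy5 and Cy3 both stood well above background on each of the arrays concerned, and a change of 2-fold, that is 1 on the log2 scale, was used as a descriptive limit. With 1 array per time point there is no test between conditions and no p-value, the number of arrays limits the precision, and all 3 comparisons share the untreated array. Probes printed at many places gave the only error, a technical SD of the change between spots of 0.170, 0.121 and 0.119 at 3, 6 and 12 h, over 161, 204 and 214 probes. It covers printing and scanning within 1 pair of arrays and not the spread between cultures, and the dimmest members lie below or near the low end of the brightness of those probes.

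The arrays themselves were uneven. Of 34755 genes, 21986 to 23282 stood well above background in Cy5, and areas of damaged spots covered 3.33% of the untreated array, 4.72% of the 3 h array and 0.186% and 0.00821% of the 6 and 12 h arrays, and no member spot lay in one. The Cy3 channel did not look like a pool of the 4 samples for some members, in both directions. The VIM probe gave 42100, 44700, 45200 and 48400 units in Cy3 on the 4 arrays against 7020, 8930, 6900 and 6720 in Cy5, and after normalization its dimmest Cy3 value exceeded its brightest Cy5 value by 3.01 on the log2 scale. In all, 8 of the 17 member probes were brighter in every Cy3 than in any Cy5, those of VIM, FN1, both of ZEB1, all 3 of ZEB2 and 1 of CDH2. Other members were brighter in Cy5, CDH3 and SNAI1 among them. The CDH3 probe gave 6610, 7380, 5560 and 5300 units in Cy5 against 554, 526, 558 and 522 in Cy3. The SNAI1 probe gave 1390, 3010, 2250 and 1560 against 297, 367, 331 and 367. A ratio therefore gives the change between time points and not the level against the treated cells. The untreated Cy5 channel carried markers of an epithelial culture. Of 10 basal and general epithelial markers 7 were well above background, EPCAM at 19100 units, KRT6A and KRT14 were set aside as outlier spots on that array, and TP63 was not well above background. PGR was not well above background, while ESR1 and ERBB2 were, at 199 and 256 units. Markers of other cell types were low but mostly detected, with 5 of 6 fibroblast genes at up to 349 units, 4 of 5 endothelial genes at up to 236 and 4 of 4 leukocyte genes on the array at up to 770, and COL3A1 and TEK were not well above background. None of the tested genes of these 3 lists moved by 2-fold at any time.

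All 10 member genes were measured well above background in untreated cells. At 3 h 13 of the 17 probes could be compared and 0 were 2-fold higher or lower, where 1.34% and 0.304% of all 31276 compared probes were. At 6 h 2 of 12 were at least 2-fold higher, CDH1 and ZEB1, against 2.2% of 30500 probes, with CDH1 under 2-fold at 0.86 under median centring and 0.89 with Cy5 alone, and 0 were 2-fold lower against 0.787%. At 12 h 1 of 12, CDH1, was at least 2-fold higher against 1.82% of 30745 probes, and 0 were 2-fold lower against 0.937%. The median change of the compared member probes was 0.13, 0.29 and 0.20, beside 0.00366, 0.00999 and 0.0067 for all compared probes. At 12 h it was -0.14 under median centring, which is 0.006 relative to the median of all probes there. Because a bulk RNA sample was measured, fewer cells carrying a transcript and less of it per cell cannot be told apart in any of these values.

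CDH1, which encodes E-cadherin, the adhesion molecule of epithelial sheets, was the member with the largest change at 12 h, and it alone of the members had repeated spots. Its probe A_23_P206359 gave a median Cy5 signal of 3270 units in untreated cells, 5870 at 3 h, 5150 at 6 h and 5920 at 12 h, over a Cy3 of 1490, 1420, 1330 and 1350. All 3 treated arrays lay above the untreated one. The log2 ratio was 0.64 ± 0.11, 1.34 ± 0.09, 1.68 ± 0.09 and 1.96 ± 0.05 (SD of 10 spots on 1 array each). The change was therefore 0.69 ± 0.08 at 3 h, 1.03 ± 0.08 at 6 h and 1.32 ± 0.09 at 12 h, and from 6 to 12 h the ratio gained a further 0.28 ± 0.08 (SD over 10 spots). The 10 spots were higher in each treated array than on the untreated one, and the lowest single change at 12 h was 1.13. On the log2 scale the normalized Cy3 channel itself changed by -0.07, -0.16 and -0.20 from untreated, and the normalized Cy5 channel by 0.62, 0.88 and 1.11.

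**Figure D1:**
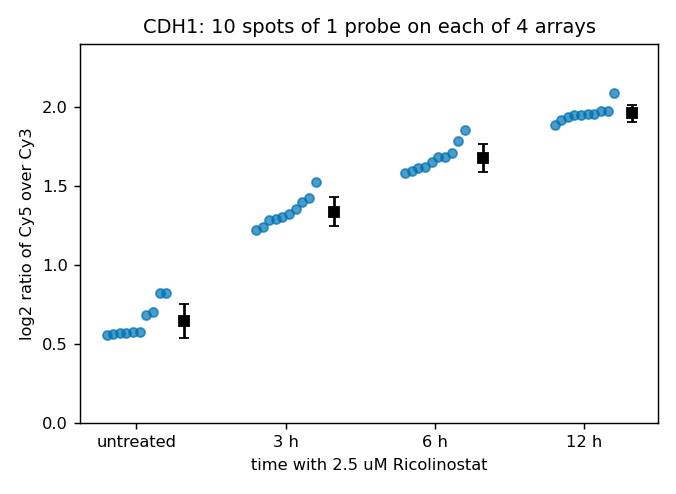
Log2 ratio of Cy5 over Cy3 for the 10 spots of the CDH1 probe on each array (circles), with their mean and SD (squares and bars, technical spread only). The spots run from 0.554 to 0.825 in untreated cells and from 1.888 to 2.089 at 12 h, with no overlap between untreated and any treated array.

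The height of CDH1 among all probes grew with time. It stood in the top 4.03% at 3 h, the top 1.96% at 6 h and the top 0.699% at 12 h, where 215 of 30745 probes were at least as high. Member probes were read over 8 processings, the one used here and 7 alternatives. Of the alternatives, leaving out damaged areas could not move a member, since no member spot lay in such an area. Over the 8, the 12 h change of CDH1 lay between 0.98 and 1.35, and 1 of them, median centring in place of loess, put it under 2-fold. Under that centring the median of all compared probes moved to -0.150 at 12 h, and relative to it CDH1 was at 1.13.

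CDH2 encodes N-cadherin, the cadherin of neural and mesenchymal cells. Its first probe, A_23_P38732, read 362, 502, 397 and 361 Cy5 units at 0, 3, 6 and 12 h, and the second, A_33_P3214159, read 616, 934, 826 and 713. The log2 changes were 0.13, 0.41 and 0.37 for the first and 0.46, 0.49 and 0.46 for the second. For the first, the normalized Cy3 channel changed by 0.17, -0.18 and -0.21 and the normalized Cy5 channel by 0.30, 0.23 and 0.17. Both probes were higher than untreated at every time and under every processing, but neither by 2-fold, and at 12 h the Cy5 signal of the first was no higher than untreated before normalization. CDH3 encodes P-cadherin of basal epithelium and is the protein-coding neighbour of CDH1 on chromosome 16. Its probe read 6610, 7380, 5560 and 5300 Cy5 units and changed by 0.10, -0.03 and 0.19, with the sign at 12 h turning to -0.17 under median centring and standing at -0.02 relative to all probes there. The 3 classical cadherins thus did not move alike, and of them CDH1 alone passed 2-fold.

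VIM and FN1 are the usual mesenchymal readouts, the intermediate filament vimentin and the matrix protein fibronectin. The VIM probe A_23_P161190 changed by 0.18, 0.17 and 0.27, and its 12 h value was -0.20 under median centring, or -0.05 relative to all probes. The FN1 probe A_24_P334130 read 177, 153, 113 and 122 Cy5 units and changed by -0.07, -0.10 and 0.03. Its normalized Cy3 channel changed by -0.20, -0.32 and -0.30 and its normalized Cy5 channel by -0.26, -0.42 and -0.27. The lowest FN1 change over all processings was -0.59 at 6 h. Neither gene reached 2-fold at any time. At 12 h FN1 was above 0 in 2 of 8 processings, with values down to -0.32. The 2 were the processing used here and the one without damaged areas, which could not differ for a member.

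ZEB1 and ZEB2 are zinc-finger repressors of epithelial genes. Both were dim in SUM149 cells, so their ratios are compressed by the 50 units added to every signal before the log. The ZEB1 probe A_33_P3374723 read 52, 129, 157 and 52 Cy5 units at 0, 3, 6 and 12 h, so that the 3 and 6 h arrays were high and the 12 h array was back at the untreated signal. Its change was 0.67, 1.24 and 0.46 with the 50 units and 1.25, 1.99 and 0.54 with 1 unit. At 12 h its normalized Cy3 channel changed by -0.32 and its normalized Cy5 channel by 0.14, so most of the 0.46 lay in the reference. The change was past 2-fold at 6 h in all 8 processings. From 6 to 12 h it was lower by 0.78 on the log2 scale, a value that 0.251% of 31015 probes matched or went below. The second ZEB1 probe, A_33_P3640690, was above background in Cy5 at 3 and 6 h, at 42 and 43 units, and not at 0 and 12 h, at 27.5 and 27. Its normalized Cy5 channel taken alone was 1.19-fold and 1.24-fold higher at 3 and 6 h, while its log2 ratio differed by 0.30 and 0.28. With 1 unit added in place of 50 the ratio differed by 1.003 at both times, so its size was set by the units added. These are differences between single dim spots and not lower limits. Both ZEB1 probes thus had the same pair of high arrays, each from 1 spot per array.

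ZEB2 had no such course. The 1 ZEB2 probe that could be compared at every time, A_23_P142560, read 56, 44, 46 and 36 Cy5 units and changed by -0.12, 0.07 and -0.003, or at 12 h by -0.45 with 1 unit added. The probe A_21_P0000590, to a non-coding ZEB2 transcript, was above background in Cy5 at 0 and 3 h only. Its normalized Cy5 channel taken alone was 1.14-fold and 1.21-fold lower at 6 and 12 h, while its log2 ratio differed by -0.08 and -0.12. These too are differences between single dim spots. The last, A_33_P3243832, was above background in Cy5 at 3 h only. The ZEB1 and ZEB2 levels cannot be set against each other, since each comes from its own probe.

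SNAI1 and SNAI2, which encode the repressors Snail and Slug, stood far above background on all 4 arrays and were also highest at 3 and 6 h. SNAI1 read 1390, 3010, 2250 and 1560 Cy5 units and SNAI2 read 587, 893, 721 and 560. The normalized Cy3 channel of SNAI1 changed by 0.295, 0.122 and 0.192 and its normalized Cy5 channel by 0.897, 0.792 and 0.399. The log2 change of SNAI1 was 0.60, 0.67 and 0.21, and that of SNAI2 was 0.31, 0.44 and 0.11. Which of 3 and 6 h was higher depended on the processing. Under median centring SNAI1 changed by 0.805 and 0.562 at 3 and 6 h, and SNAI2 by 0.467 and 0.318. Neither reached 2-fold at any time, and at 12 h median centring turned the sign of both, to -0.05 and -0.13, which is 0.11 and 0.02 relative to all probes. Measured directly, the 12 h minus 6 h difference was -0.46 for SNAI1 and -0.33 for SNAI2. A share of 2.51% of probes was at least as low as SNAI1 and 5.96% as SNAI2.

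TWIST1, a basic helix-loop-helix factor of mesoderm, went the other way on both of its coding probes. The probe A_23_P71073 read 111, 90, 64 and 53 Cy5 units, and A_33_P3414591 read 177, 160, 99 and 93.5. In raw Cy5 each later array was below the one before in both probes. The log2 ratio of the second probe did not fall from 6 to 12 h, with a difference of 0.002. The changes were -0.20, -0.25 and -0.47 for the first and -0.15, -0.46 and -0.46 for the second. They were negative in all 8 processings at each time and past 2-fold in none. Both probes were dim, and the size of the fall depended on the processing. At 12 h no alternative gave a smaller fall. The 12 h changes were -0.68 and -0.58 with 1 unit added before the log, and -0.93 and -0.70 under Feature Extraction's processed signals. Smaller falls were seen at 3 h under median centring, at -0.17 and -0.09, and at 6 h for the first probe with 1 unit, at -0.17. Of the remaining 2 TWIST1 probes, to a predicted non-coding RNA, A_21_P0005474 was never above background and A_21_P0005597 was above it on the untreated array only.

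**Figure D2:**
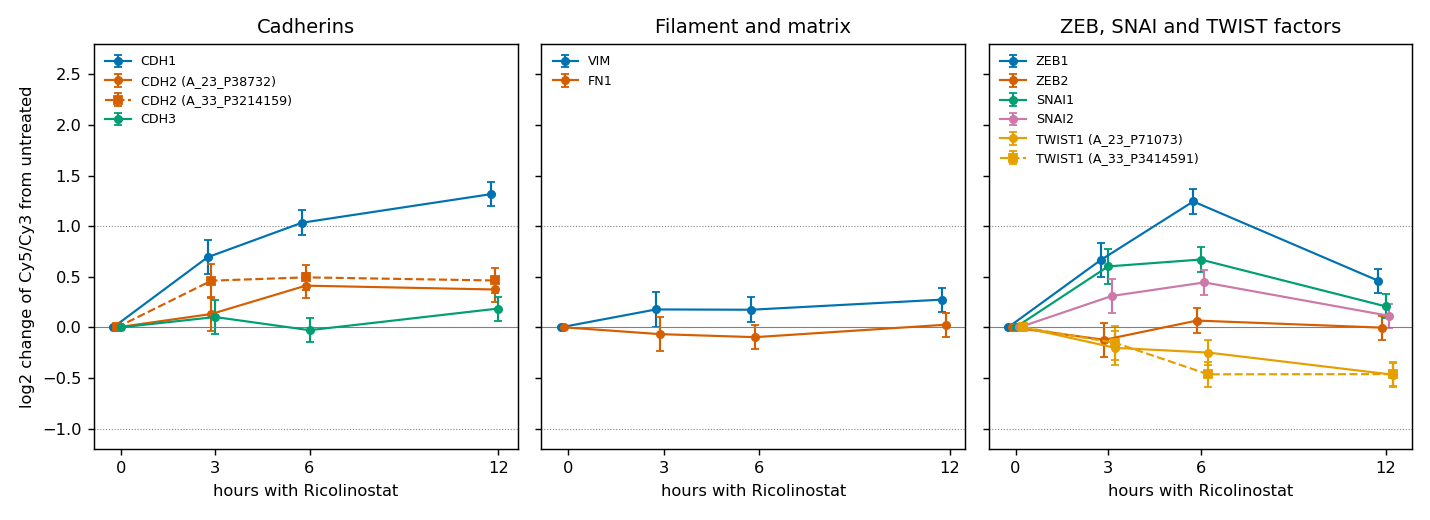
Change of the log2 ratio from untreated for the 12 member probes compared at 12 h, by role, with error bars of 1 technical SD between spots (0.170, 0.121 and 0.119) and dotted lines at 2-fold. In this processing CDH1 climbs to 1.32, ZEB1, SNAI1 and SNAI2 are highest at 6 h, and both TWIST1 probes end at -0.47 and -0.46.

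**Figure D3:**
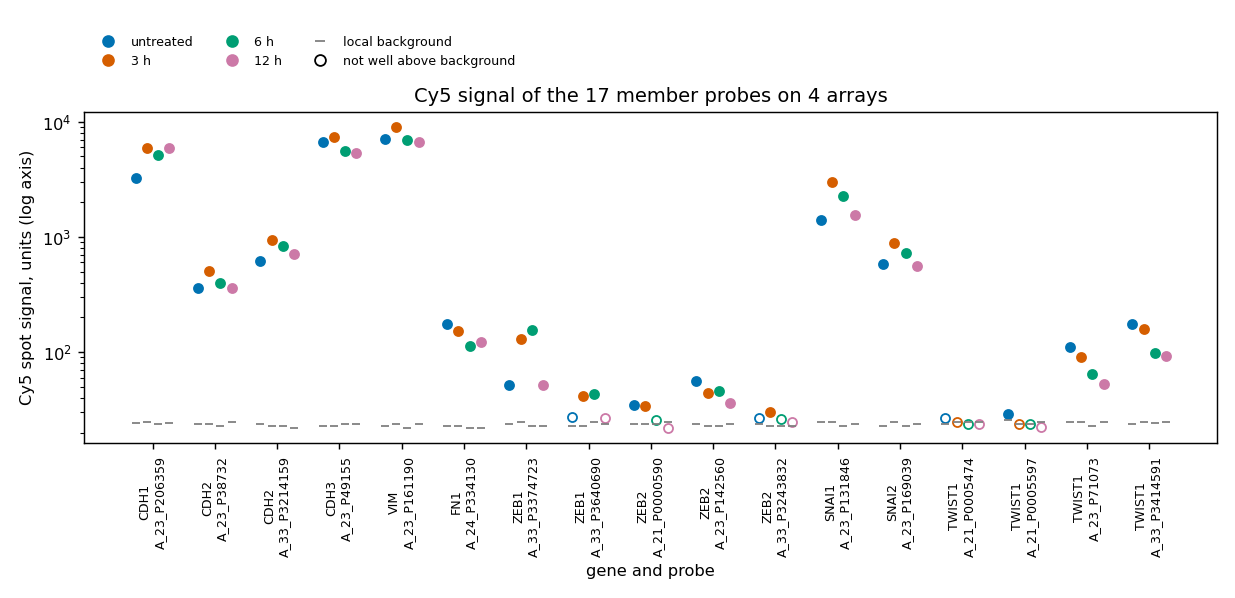
Raw Cy5 signal of all 17 member probes on the 4 arrays on a log axis, with the local background as dashes and open circles where the probe was not well above it. FN1, ZEB1, ZEB2 and TWIST1 probes lie within reach of background, while CDH1, CDH3, VIM and SNAI1 lie at 1390 units or more on every array.

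Counted over all members, 7 of 13, 9 of 12 and 9 of 12 compared probes changed by more than 1 technical SD at 3, 6 and 12 h, and 4, 8 and 7 by more than 2. Of all compared probes, 43.5%, 61.7% and 61.3% changed by more than 1 technical SD and 19.4%, 38.1% and 37.7% by more than 2, so the first limit is passed by many probes and says little of the members. In the direct comparison of the 6 and 12 h arrays, 5 member probes were higher and 7 lower at 12 h and 0 differed by 2-fold, where 0.1% of all 31015 probes did.

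The other parts of the adhesion machinery were read from lists, with 1 probe per gene. Over all genes compared in this way 1.69%, 2.81% and 2.34% were at least 2-fold higher and 0.366%, 0.939% and 1.12% lower at 3, 6 and 12 h. The catenins, which join cadherins to actin, gave 0 of 5 compared genes past 2-fold at each time, with a median of 0.22 at 12 h and JUP (plakoglobin) the furthest at 0.49. The other cadherins gave 0 of 5 with a median of -0.23 and CDH16 the furthest at -0.72. In this processing no compared catenin or other cadherin reached 2-fold, with CDH11 nearest at 0.95 at 6 h, from a spot inside damage on the 6 h array, and past it at 1.73 with Cy5 alone.

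The epithelial junction genes, of tight junctions and desmosomes, had the highest median of the lists at 12 h. All 17 could be compared, with a median of 0.19, 0.38 and 0.58 at 3, 6 and 12 h beside 0.008, 0.016 and 0.014 for all genes, and 2, 3 and 4 of them were at least 2-fold higher and 0, 0 and 1 lower. CLDN4, a claudin of the tight junction strand, was the furthest at 12 h, its probe A_33_P3285545 reading 3320, 6100, 5990 and 7840 Cy5 units and changing by 0.81, 1.29 and 1.86. A second CLDN4 probe, A_33_P3378272, changed by -0.01 at 3 h and 0.04 at 12 h. At 6 h it was not well above background in both channels, so it stood near the limit of detection. The rise of CLDN4 therefore rests on the first probe and was not seen on the second. The other genes past 2-fold at 12 h, named after their values were seen, were CLDN1 at 1.80, CGN (cingulin) at 1.67 and PPL (periplakin) at 1.07, with the desmosomal PKP3 lower at -1.21. Under median centring PPL stood below 2-fold at 0.93, or at 1.08 relative to all probes there. The median of the list was then 0.26 and that of all genes -0.16. EPCAM changed by -0.28. F11R was past 2-fold at 3 h, at 1.28, from a probe in a damaged area of the 3 h array, and its other probe there was at 0.31.

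Among 12 regulators of the epithelial state 10 could be compared, and 4, 3 and 3 were at least 2-fold higher and 0 lower. The list had a median of 0.13, -0.02 and 0.14. GRHL1, a grainyhead factor of epithelia, was the furthest at 2.27, 2.85 and 2.69, from 252 Cy5 units untreated to 1680, 2230 and 1720, with a second probe, A_33_P3423791, at 0.44, 0.70 and 0.68. OVOL1 at 1.13, 1.81 and 1.87 had its spot inside damage on the untreated array, GATA3 passed 2-fold at 3 h alone from a damaged area of that array, and ELF3 stood at 1.32, 1.65 and 1.57. The splicing regulators ESRP1 and ESRP2 changed by -0.16 and -0.24 at 12 h. Of the genes in these lists, EPCAM, F11R, OVOL1, GATA3, ELF3, ESRP1, ESRP2, CDH11, FAP and TGFB2 were also named after their values were seen.

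Other factors that drive the transition gave 1 of 12 past 2-fold at every time, SNAI3, a relative of SNAI1, which read 40, 174, 175 and 125 Cy5 units and changed by 1.48, 1.55 and 1.40. Mesenchymal matrix and cytoskeleton genes gave 0 of 23, 0 of 22 and 2 of 22 past 2-fold, with a median of 0.14 at 12 h. The 2 were the matrix gene TNC (tenascin C) at 1.16 and FAP, a protease of activated fibroblasts, at -1.07. Under median centring TNC was at 0.89, or 1.04 relative to all probes there. TGF-beta pathway genes, whose ligands induce the transition in many epithelia, gave 0, 1 and 0 of 13, TGFB2 at -1.01 at 6 h, and TGFBR3 was the furthest at 12 h at 0.96. Markers of basal and general epithelial, luminal receptor, fibroblast, endothelial and leukocyte cells gave none past 2-fold among the compared genes, with KRT19 at 0.92, ERBB2 at -0.04, COL1A1 at 0.67, CDH5 at -0.23 and CD14 at 0.61 the furthest at 12 h in their lists.

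**Figure D4:**
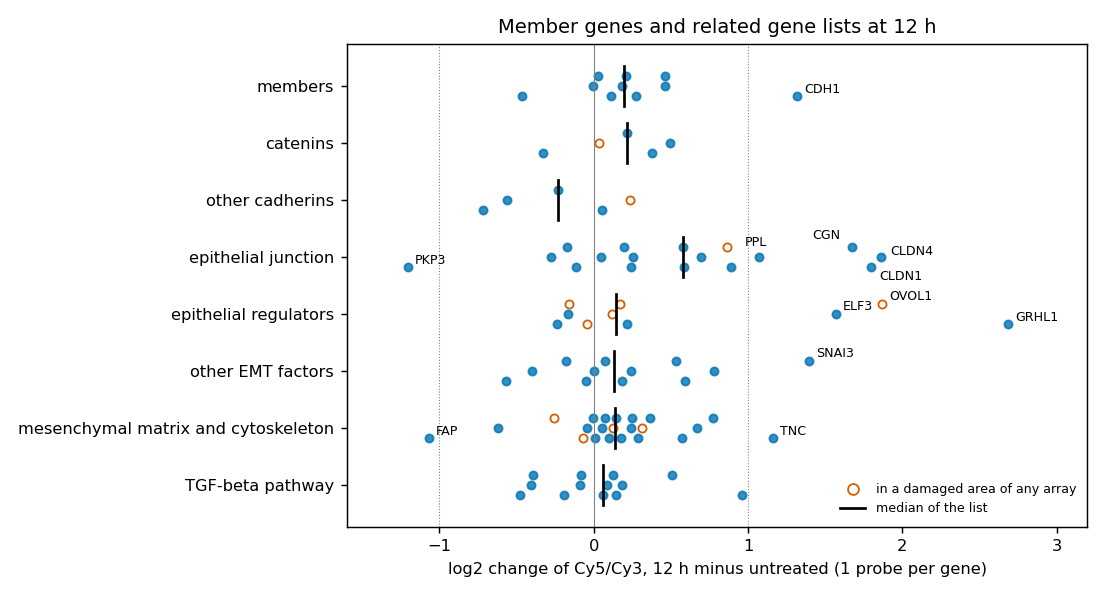
Log2 change at 12 h of the compared genes of the members and 7 related lists, 1 probe per gene, with list medians as bars and genes past 2-fold named. The junction list has a median of 0.58, and GRHL1 at 2.69 is the point furthest right.

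The genes whose 3 changes lay nearest to those of CDH1, by distance on the log2 scale over the 3 comparisons, were SCD5, a fatty acid desaturase (0.645, 1.055 and 1.307), EPB41L4B (0.77, 1.03 and 1.35) and LIMA1, an actin-binding protein (0.75, 1.07 and 1.25), of 19890 genes compared. The distances were 0.0523, 0.0802 and 0.0941, below the technical SD of a single change. In all, 33 genes lay within 0.2, so the order among near genes is not resolved.

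**Figure D5:**
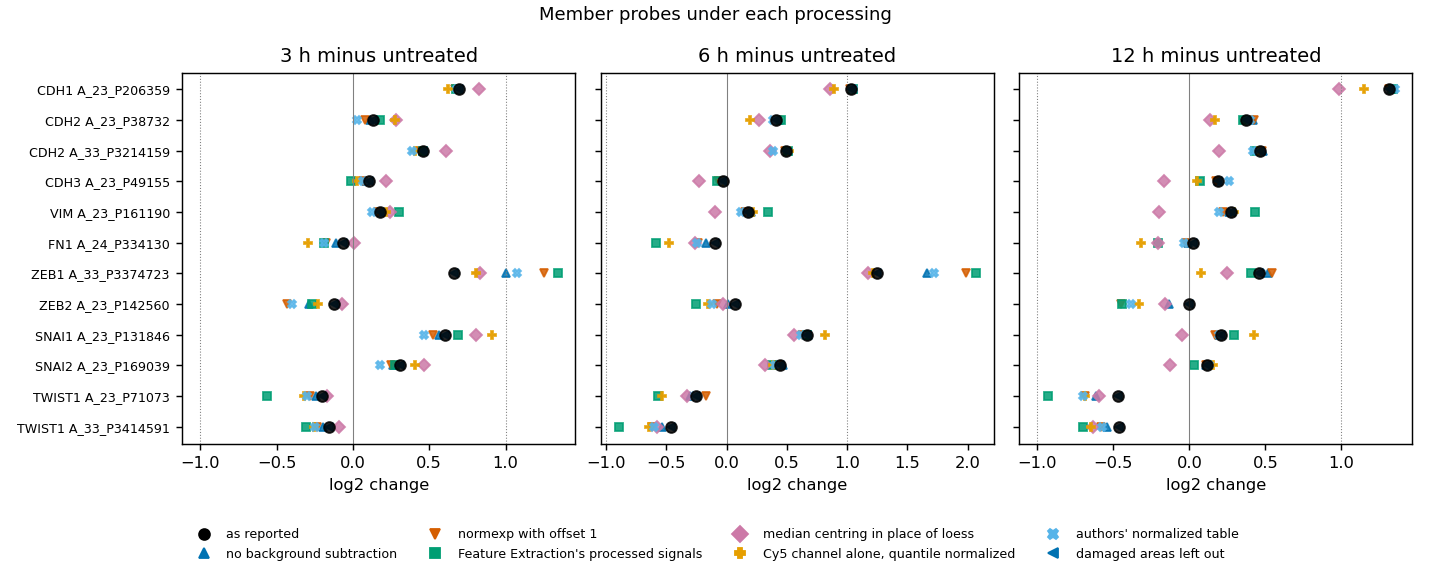
Log2 change of the 12 member probes compared at 12 h under each processing, 1 panel per time. CDH1 stays between 0.98 and 1.35 at 12 h, ZEB1 spreads up to 2.07 at 6 h under Feature Extraction's processed signals, and VIM, FN1, CDH3, SNAI1 and SNAI2 fall on both sides of 0 at 12 h.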

How the data were processed

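Total RNA was amplified, labelled with Cy5 and hybridised with a Cy3 reference to 4 two-colour Agilent arrays on 1 slide. Per the file headers, the deposited scanner files hold spot intensity and outlier flags from Agilent Feature Extraction 12.0.1.1 for a GRCh37 design, and a second file from the authors gives log2 ratios already normalized, with gene symbols, whose normalization is not given in the sources used here. Median pixel intensity was background corrected with normexp (offset 50), control spots were dropped and outlier-flagged spots set aside, and arrays were normalized by loess and then Aquantile in limma 3.58.1 (R 4.3.3). Values were averaged over the spots of each probe, and a probe counted as well above background when at least 50% of its unflagged spots did. Damaged areas were windows of 13 rows by 7 columns with at least 10% of spots flagged or over 2-fold from the Cy3 median of the 4 arrays. Scripts were tested on simulated data. The dose and times come from the labels. The members, gene lists and alternatives were chosen with earlier results of these data known. One gene of the junction list is not reported here and was left out of that list's counts and medians. The named genes were all members, the gene furthest at 12 h in each other list (the probe brightest in Cy3), and the 3 genes nearest to CDH1, and others are said to be named after their values were seen. Alternatives were offset 1, no background subtraction, Feature Extraction's processed signals, median centring, Cy5 alone, the authors' log2 table, other detection filters, thresholds of 1.5-fold and 4-fold, and leaving out damaged areas. Fold limits are descriptive, since each time point has 1 array.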

Additional observations from a re-analysis of the deposited data

How the results depend on the processing

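No paired analysis was possible because a single array represents each time point. The count of member probes past 2-fold at 3 h went from 0 to 1 without background subtraction, with offset 1, with Feature Extraction's signals and in the authors' table, and to 3 at a 1.5-fold limit. At 6 h it went from 2 to 1 under median centring and with Cy5 alone, which put CDH1 under the limit, and to 0 at 4-fold. At 12 h it went from 1 to 0 under median centring and at 4-fold. The median change of the member probes went from 0.293 to 0.119 under median centring and 0.067 without the detection filter at 6 h, and from 0.196 to -0.144 under median centring at 12 h, where it was 0.006 relative to the median of all probes. Median centring also took the share of rises among all probes past 2-fold from 66.0% to 25.9% at 12 h and from 73.7% to 49.9% at 6 h, and Cy5 alone took it to 48.9% at 12 h, 58.4% at 6 h and from 81.5% to 37.8% at 3 h. The cause was not tested. Of 259 single probe values under alternatives, 240 kept their sign and 186 moved by less than the technical SD. These counts include the values with damaged areas left out, which could not differ, since no member spot lay in such an area. Signals near background limit ZEB1, ZEB2 and TWIST1, and FN1 was about as dim as the brighter TWIST1 probe. With offset 1 the 3 h change of ZEB1 was 1.25 in place of 0.67.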

Other observations

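The CDH11 probe, for OB-cadherin, a mesenchymal cadherin, read 40, 36.5, 200 and 36 Cy5 units at 0, 3, 6 and 12 h, so that the 6 h array alone was high, and its spot lay inside damage on that array. The change there was 0.95, or 1.73 with Cy5 alone, and a second CDH11 probe could not be compared at any time. The PKP3 probe, for the desmosomal plakophilin 3, read 10300, 8780, 5090 and 3150 Cy5 units, each array below the one before, while CGN read 662, 1550, 1580 and 1770. The FAP probe read 2440, 1720, 1240 and 883 Cy5 units over the same arrays. These genes were named after their values were seen, and each value rests on 1 probe and 1 array per time.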
